A study of Homo sapiens with 18 samples.

Results

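The genes described here are 9 members of the matrix protease and plasminogen activator system, of 17017 genes in the deposited table. They were chosen by gene symbol: the matrix metalloproteinases MMP1, MMP3 and MMP14, the tissue inhibitors TIMP1, TIMP2 and TIMP3, and the plasminogen activation genes PLAU, PLAT and PLAUR. The cells were MDA-MB-231, an established line of triple-negative breast carcinoma. All 3 treatments received lentiviral particles made from pLKO.1 and were kept in 1 µg/ml puromycin for 96 h. SC is read as the scramble control, and SH2 and SH3 as hairpins against the mRNA of fibrillarin (FBL), the methyltransferase of ribosomal RNA. The labels do not tie SH2 or SH3 to a named hairpin sequence, and no single clone is described, so each library is taken as a selected pool. Cells in all groups received 100 µg/ml cycloheximide for 5 min before lysis. For every treatment, 3 libraries of cytoplasmic RNA and 3 of ribosome footprints (fragments left by RNase I on monosomes) were deposited, which gives 18 libraries.

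Matrix metalloproteinases are zinc proteases that cleave collagens and other matrix proteins. MMP1 and MMP3 are secreted, whereas MMP14 sits in the plasma membrane. The TIMPs bind the active site of metalloproteinases and block it. PLAU (urokinase) and PLAT (tissue plasminogen activator) cut plasminogen into plasmin, which degrades fibrin and can activate metalloproteinase precursors. PLAUR is the membrane-anchored receptor that holds urokinase at the cell surface. MDA-MB-231 cells are widely used as an invasive line in which this system is studied.

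RefSeq promoter windows (GRCh38.p14) were used for 5 of the 9 members: MMP14, TIMP1, TIMP3, PLAU and PLAUR. The selection of windows left out the chromosome that carries PLAT, so no PLAT window could be used. The windows of PLAUR, MMP14 and TIMP1 are shown because these members were all higher with SH2 than with SH3 in footprints, as given below. Each is the 250 bases before the annotated start, written 5′ to 3′ on the gene's strand: chr19:43670170-43670419 on the minus strand for PLAUR, chr14:22836335-22836584 on the plus strand for MMP14 and chrX:47582186-47582435 on the plus strand for TIMP1. Capitals mark matches on either strand to a GC box (GGGCGG), an AP-1 element (TGAGTCA) or an AP-1 variant (TGAGTAA). The variant was added to the search after the windows had been read.
PLAUR: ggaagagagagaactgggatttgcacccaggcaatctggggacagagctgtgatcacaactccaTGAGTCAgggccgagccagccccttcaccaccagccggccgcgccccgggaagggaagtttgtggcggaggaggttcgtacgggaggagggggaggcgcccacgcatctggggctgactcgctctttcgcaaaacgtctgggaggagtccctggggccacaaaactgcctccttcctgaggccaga
MMP14: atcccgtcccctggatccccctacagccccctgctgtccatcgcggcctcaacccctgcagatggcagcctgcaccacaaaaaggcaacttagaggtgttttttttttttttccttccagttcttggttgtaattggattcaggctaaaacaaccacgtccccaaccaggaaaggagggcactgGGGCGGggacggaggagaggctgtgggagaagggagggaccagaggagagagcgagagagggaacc
TIMP1: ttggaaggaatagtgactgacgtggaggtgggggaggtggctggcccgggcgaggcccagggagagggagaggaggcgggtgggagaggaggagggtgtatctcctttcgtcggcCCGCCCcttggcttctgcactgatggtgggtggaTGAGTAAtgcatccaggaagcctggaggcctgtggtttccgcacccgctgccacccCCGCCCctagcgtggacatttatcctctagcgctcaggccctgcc
AP-1 is a dimer of FOS and JUN family proteins, and GC boxes are bound by SP family factors. The PLAUR window held 1 AP-1 element, which began 186 bases before the start, and no GC box. Of all 35116 RefSeq windows of the same length, 4.2% held that AP-1 element. MMP14 had a single GC box at 66 bases, a motif found in 42.6% of all windows. In TIMP1 there were GC boxes at 135 and 45 bases and the AP-1 variant at 101 bases, the latter present in 2.21% of windows. The members shown thus shared no single motif among those searched, and a TATA box (TATAAA, in 10.7% of all windows) matched none of the 3. TIMP3 and PLAU, whose windows are not shown, were searched as well. The TIMP3 window held 5 GC boxes, PLAU window 2 held 3, and PLAU window 1 held none. None of these windows held either AP-1 motif or the TATA box.

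RNA libraries held 23469830 to 27629488 counts, and footprint libraries 1662705 to 6098648. The 9 members together took 0.154% to 0.365% of the counts of an RNA library and 0.231% to 0.509% of those of a footprint library. Levels are given as CPM, the usual per-library scaling of counts, with edgeR's TMM factors. The knockdown target FBL had 388 ± 36.4 CPM of RNA in SC (SD, n = 3 libraries per treatment), 5.67 ± 5.09 in SH2 and 3.49 ± 0.612 in SH3. The cell line label was checked against markers. All 6 markers expected of MDA-MB-231 (VIM, CD44, KRT8, KRT18, EGFR and AXL) were present, from 197 CPM for EGFR to 5579 CPM for VIM as SC means in RNA. The hormone receptor genes ESR1 and PGR had at most 2 RNA counts in any library. Of 5 fibroblast markers, COL1A2 and DCN had at most 6 RNA counts in any library. COL1A1 and PDGFRB were higher in RNA with both hairpins. The mean of LUM was not, at 0.541 CPM for the control against 0.536 (SH2) and 0.440 (SH3). The summed fibroblast markers reached 29.3 to 45.6 CPM in SC, 56.6 to 108 in SH2 and 67.3 to 82.9 in SH3. Most of that sum was COL1A1 alone, whose mean went from 32.2 CPM (SC) to 76.6 (SH2) or 68.7 (SH3). Of 4 leukocyte and 3 endothelial markers, CD3E, CDH5 and VWF were below 1 CPM in RNA, and the summed lists reached at most 7.91 and 4.04 CPM. The leukocyte marker PTPRC had a mean of 1.35 CPM in SC RNA, 0.332 in SH2 and 0.242 in SH3. The part of these marker values in the results below was not tested.

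Replicate numbers of RNA and footprint libraries did not run in parallel in every treatment, and the members show this. For each library the deviation of every gene from its group mean was taken on the log2 scale, over 7536 genes. In SC, RNA library 1 resembled footprint library 2 (r = 0.662) and RNA library 2 resembled footprint library 1 (r = 0.496), while the same-numbered pairs 1 and 2 gave r = -0.542 and -0.528. SH2 showed the same crosswise order, with r = 0.628 and 0.569 against -0.356 and -0.338 for equal numbers. In SH3 the equal numbers matched, at 0.509, 0.395 and 0.242. These correlations are across genes, which are not independent, and they are given as a description. No per-replicate footprint-to-RNA ratio was therefore formed, and the fits of RNA and of footprints do not use the numbers.

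**Figure D1:**
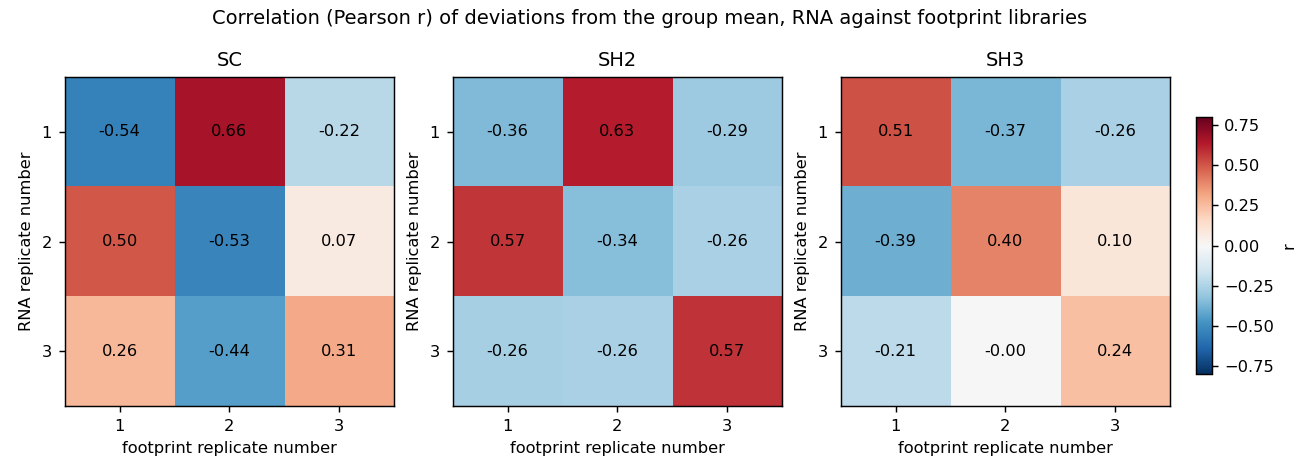
Pearson r between RNA libraries (vertical axis, replicate number) and footprint libraries (horizontal axis, replicate number) of each treatment, computed on deviations from the group mean over 7536 genes. In SC and SH2 the highest values of libraries 1 and 2 lie off the diagonal (0.66 and 0.63 for RNA 1 against footprint 2), whereas in SH3 they lie on it.

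The comparisons ask how the level of each member differed between each hairpin and SC, and between the hairpins themselves. Tests are edgeR's quasi-likelihood test, and "called" means a Benjamini-Hochberg adjusted p under 0.05 over all genes tested. With SH2, 8 of 9 members were called in RNA, 7 of them higher and PLAU lower. The background was high, since 61.4% of all tested genes were called in that comparison, 31.1% as higher and 30.4% as lower. With SH3, 4 of 9 were called in RNA: TIMP2 higher, and MMP1, PLAT and PLAU lower. There 53% of all genes were called, 27.8% as higher and 25.2% as lower, so the count for SH3 is near the background. The members' median RNA log2 change was 1.08 with SH2 against 0.01 for all genes, and 0.10 with SH3 against 0.03. The members were chosen with earlier results of these data known. Their counts and medians beside all genes, here and below, are therefore a description and not a test. SH2 and SH3 were compared directly too, and 5 of 9 members were called, all higher with SH2, where 18.9% of all genes were higher and 39.3% were called in all. Both hairpins are set against the same SC libraries, so their changes are not independent of each other.

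In footprints 8 members had enough counts to be tested. With SH2, 7 of 8 were called, 6 higher and PLAU lower, where 44.2% of all genes were called, 21% as higher and 23.2% as lower. With SH3, 5 of 8 were called: TIMP2 higher, and MMP1, PLAU, PLAUR and PLAT lower. In that comparison 35.9% of genes were called, 16.9% as higher and 19% as lower. The SH3 calls in RNA and in footprints differed only in PLAUR. Leaving out each replicate gave 3 to 5 called members in both measures. The members' median footprint log2 change was 0.92 with SH2 and -0.30 with SH3, where all genes had medians of -0.00415 and -0.01. Directly compared, 5 of 8 were higher with SH2 than with SH3, where 12.1% of all genes were higher and 23.8% were called. In whole-culture RNA, fewer cells that express a gene and less RNA per cell cannot be told apart. Nothing in the labels says that replicates were separate cultures, so p-values measure the spread between these libraries, which may be technical.

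**Figure D2:**
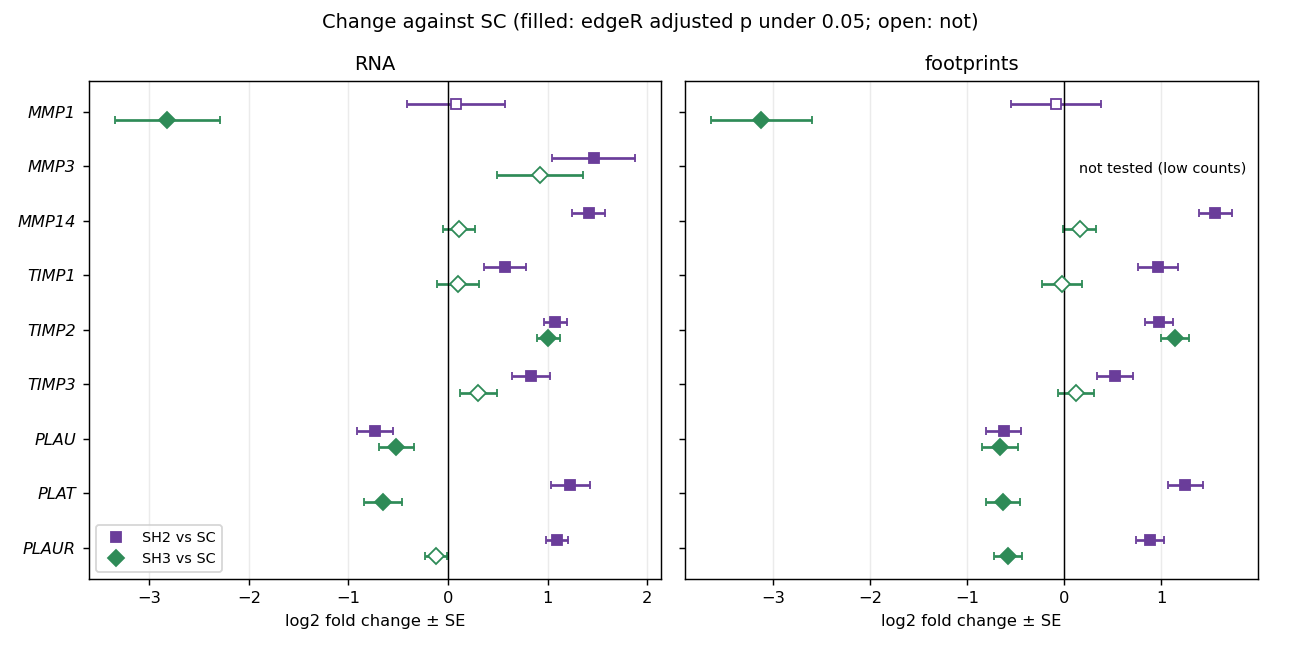
Log2 fold change against SC with its SE (horizontal axis) for the 9 members in RNA (left) and footprints (right), squares for SH2 and diamonds for SH3, filled where the edgeR adjusted p is under 0.05. MMP14, PLAUR and PLAT lie near or above 1 with SH2 and near or below 0 with SH3, MMP1 lies near -3 with SH3, and MMP3 footprints were not tested because of low counts.

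MMP1, the interstitial collagenase, fell with SH3 to 0.142 of its SC level in RNA and had no called change with SH2. Its RNA stood at 967, 162 and 212 CPM in SC libraries 1 to 3, at 528, 541 and 347 in SH2, and at 91.4, 52.1 and 46.4 in SH3. Every SH3 library was below every library of both other treatments, and SC library 1 was far above the other two SC libraries. The log2 change with SH3 was -2.82 (SE 0.53, edgeR adjusted p = 5.29e-04). SH2 against SC gave 0.08 (SE 0.49, edgeR adjusted p = 0.898). MMP1 footprints were 240, 1603 and 403 CPM in SC, 859, 770 and 471 in SH2, and 118, 73.6 and 68.4 in SH3. The high SC footprint library was number 2, the one that resembled SC RNA library 1 across genes. In footprints the SH3 change was -3.12 (SE 0.52, edgeR adjusted p = 2.95e-04) and the SH2 change -0.09 (SE 0.46, edgeR adjusted p = 0.896). The SH2 value of MMP1 turned on those SC libraries: it was 1.32 in RNA without SC library 1 and 1.12 in footprints without SC library 2, and both were called. Without SC RNA library 2 or 3 the SH2 value was -0.32 or -0.26, not called. The fall with SH3 was called under all alternatives run, but its size turned on the same libraries: it was -1.58 in RNA without SC library 1 and -1.91 in footprints without SC library 2. Directly compared, SH2 exceeded SH3 by 2.90 in RNA (SE 0.53, edgeR adjusted p = 7.77e-04) and by 3.03 in footprints (SE 0.52, edgeR adjusted p = 6.17e-04).

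MMP3 (stromelysin-1) lies next to MMP1 in RefSeq's gene order on chromosome 11 and was scarce in all libraries, with 10 to 90 RNA counts. Its RNA was 1.80, 0.824 and 0.393 CPM in SC, 3.53, 2.75 and 2.06 in SH2, and 2.64, 1.22 and 1.84 in SH3. All SH2 libraries were above all SC libraries, and SH3 overlapped both. The SH2 log2 change was 1.47 (SE 0.42, edgeR adjusted p = 0.00732), and for SH3 the value was 0.92 (SE 0.43, edgeR adjusted p = 0.0855). Without SC library 1 these MMP3 values were 2.17 and 1.63, both called, and the SH2 value was 1.08 and called without SC library 3. With no count filter the SH3 value was 0.93 and called. Footprint counts of MMP3 were 5, 2 and 2 in SC, 13, 29 and 6 in SH2, and 3, 5 and 5 in SH3, below the count filter of the footprint fit. Without that filter the SH2 footprint change was 2.79 (SE 0.57, edgeR adjusted p = 1.37e-05). MMP3 had the fewest counts of the 9 members in every library.

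MMP14 is the membrane-type metalloproteinase that activates proMMP2 together with TIMP2. It rose 2.66-fold in RNA with SH2 and showed no called change with SH3. Its RNA was 334, 243 and 225 CPM in SC, 784, 658 and 691 in SH2, and 352, 280 and 233 in SH3. SH2 libraries lay apart from all others, and SC and SH3 libraries overlapped. The SH2 log2 change was 1.41 (SE 0.16, edgeR adjusted p = 5.76e-06), that of SH3 was 0.11 (SE 0.16, edgeR adjusted p = 0.583), and SH2 exceeded SH3 by 1.30 (SE 0.16, edgeR adjusted p = 3.64e-05). MMP14 footprints were 228, 354 and 269 CPM in SC, 814, 923 and 756 in SH2, and 359, 330 and 259 in SH3. The pattern of MMP14 in footprints matched that in RNA, with changes of 1.55 (SE 0.17) for SH2 and 0.16 (SE 0.17) for SH3. MMP2 itself, the substrate of MMP14, had 3 to 11 RNA counts per library and was not tested.

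TIMP1 had the widest spread among SC libraries of the 3 inhibitors. Its RNA was 686, 313 and 366 CPM in SC, 666, 699 and 666 in SH2, and 497, 517 and 451 in SH3. SC library 1, the library with the high MMP1, was level with SH2, and the other SC libraries were below both hairpins. The SH2 log2 change was 0.57 (SE 0.21, edgeR adjusted p = 0.0281), and 9 of 15 settings called it. Without SC library 2 it was 0.36 and not called, and the authors' deposited table gives an adjusted p of 0.113 for it. In footprints TIMP1 stood at 334, 744 and 492 CPM in SC, 1026, 967 and 1054 in SH2, and 476, 517 and 548 in SH3. All SH2 footprint libraries exceeded all others, and the SH2 change was 0.96 (SE 0.20, edgeR adjusted p = 0.00135). SH3 gave 0.10 in RNA (SE 0.21, edgeR adjusted p = 0.700) and -0.02 in footprints (SE 0.20, edgeR adjusted p = 0.940). The SH3 value in RNA was 0.51, and called, without SC library 1. SH2 exceeded SH3 in TIMP1 footprints by 0.98 (SE 0.21, edgeR adjusted p = 0.00278), and in RNA the difference was 0.47 (SE 0.21, edgeR adjusted p = 0.0889), called in 5 of 15 settings, among them those without SC library 1 or 2.

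TIMP2 was the member that rose with both hairpins in RNA and in footprints. Among all genes 19.6% rose with both in RNA and 10.8% in footprints. Its RNA was 93.8, 107 and 91.6 CPM in SC, 230, 177 and 211 in SH2, and 221, 178 and 189 in SH3. No hairpin library overlapped SC, and the hairpins overlapped each other. The log2 changes were 1.08 with SH2 (SE 0.12, edgeR adjusted p = 3.55e-06) and 1.01 with SH3 (SE 0.12, edgeR adjusted p = 1.17e-05). TIMP2 footprints were 145, 128 and 182 CPM in SC, 301, 312 and 282 in SH2, and 360, 317 and 331 in SH3. They rose by 0.98 (SE 0.14) and 1.14 (SE 0.14) on the log2 scale. The difference of the hairpins in TIMP2 was 0.07 in RNA (SE 0.12, edgeR adjusted p = 0.660) and -0.17 in footprints (SE 0.14, edgeR adjusted p = 0.416), neither called.

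TIMP3, the inhibitor that is bound to the extracellular matrix, rose with SH2. Its RNA was 164, 329 and 234 CPM in SC, 483, 376 and 436 in SH2, and 325, 264 and 309 in SH3. SH2 libraries were above all others, and SC library 1 was the lowest of all. The SH2 log2 change in RNA was 0.83 (SE 0.19, edgeR adjusted p = 0.00161) and the SH3 change 0.30 (SE 0.19, edgeR adjusted p = 0.188). Without SC library 2 the SH3 value of TIMP3 was 0.59 and called. SH2 exceeded SH3 by 0.53 (SE 0.19, edgeR adjusted p = 0.0377), a call lost when either SH2 library 1 or 3 or SH3 library 2 or 3 was left out, with 0.44 to 0.57 in those fits. TIMP3 footprints were 613, 330 and 584 CPM in SC, 720, 766 and 714 in SH2, and 562, 466 and 636 in SH3. Here SC library 2 was lowest, and SH2 was again above both other treatments. The SH2 footprint change was 0.52 (SE 0.19, edgeR adjusted p = 0.0341), and it was 0.29 and not called without SC library 2. Leaving out any SH2 library also ended that call, with 0.50 to 0.55.

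PLAU fell with both hairpins. Among all genes, 18.2% fell with both in RNA and 12% in footprints. Its RNA was 306, 247 and 258 CPM in SC, 217, 119 and 151 in SH2, and 220, 175 and 170 in SH3. No hairpin library reached the lowest SC library. The RNA log2 change was -0.73 with SH2 (SE 0.18, edgeR adjusted p = 0.00260) and -0.52 with SH3 (SE 0.18, edgeR adjusted p = 0.0236). PLAU footprints were 331, 453 and 452 CPM in SC, 197, 337 and 265 in SH2, and 294, 236 and 249 in SH3. SH2 library 2 lay just above SC library 1, and SH3 did not overlap SC. PLAU footprints changed by -0.62 with SH2 (SE 0.18, edgeR adjusted p = 0.0111) and by -0.67 with SH3 (SE 0.18, edgeR adjusted p = 0.0100). The SH3 call in RNA was lost without SC library 1 (-0.44), SH3 library 2 (-0.50) or SH3 library 3 (-0.48). In footprints the SH2 call was lost without SH2 library 1 (-0.44), and the SH3 call without SH3 library 2 (-0.59). PLAU did not differ between the hairpins by a called amount, with -0.21 in RNA (SE 0.18, edgeR adjusted p = 0.360) and 0.04 in footprints (SE 0.18, edgeR adjusted p = 0.893). Without SH2 library 1 the RNA difference was -0.48 and called.

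PLAUR, the receptor of PLAU, rose 2.14-fold in RNA with SH2. Its RNA was 125, 95.8 and 99.1 CPM in SC, 230, 229 and 224 in SH2, and 96.4, 107 and 90.1 in SH3. SH2 stood apart with little spread, and SH3 overlapped SC. The SH2 log2 change was 1.10 (SE 0.11, edgeR adjusted p = 1.67e-06) and the SH3 change -0.12 (SE 0.11, edgeR adjusted p = 0.368). PLAUR footprints were 132, 168 and 179 CPM in SC, 310, 298 and 273 in SH2, and 98.3, 116 and 105 in SH3. In this measure all SH3 libraries were below all SC libraries, which was not so in RNA. Footprints rose by 0.88 with SH2 (SE 0.14, edgeR adjusted p = 1.37e-04) and fell by 0.58 with SH3 (SE 0.14, edgeR adjusted p = 0.00547). SH2 exceeded SH3 by 1.22 in RNA (SE 0.11, edgeR adjusted p = 2.47e-06) and by 1.46 in footprints (SE 0.15).

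PLAT changed in opposite directions with the hairpins, in RNA and in footprints. Such opposite calls were found in 1.92% of all genes in RNA and 0.88% in footprints, and PLAUR was the other member with them, in footprints. PLAT RNA was 196, 135 and 120 CPM in SC, 402, 337 and 317 in SH2, and 125, 86.4 and 75.1 in SH3. SH2 libraries were above all others, whereas SH3 library 1 lay above SC library 3. The log2 changes were 1.23 with SH2 (SE 0.19, edgeR adjusted p = 9.20e-05) and -0.65 with SH3 (SE 0.19, edgeR adjusted p = 0.0113). PLAT footprints were 265, 422 and 387 CPM in SC, 858, 917 and 765 in SH2, and 282, 219 and 193 in SH3. The same order held, with SH3 library 1 above SC library 1. Footprints rose by 1.25 (SE 0.18, edgeR adjusted p = 4.74e-05) with SH2 and fell by 0.63 (SE 0.18, edgeR adjusted p = 0.0116) with SH3. The SH3 call in RNA was lost without SC library 1 (-0.43), and that in footprints without SC library 3 (-0.56), SH3 library 2 (-0.59) or SH3 library 3 (-0.51). SH2 exceeded SH3 by 1.88 in each measure (SE 0.20 in RNA and 0.18 in footprints).

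**Figure D3:**
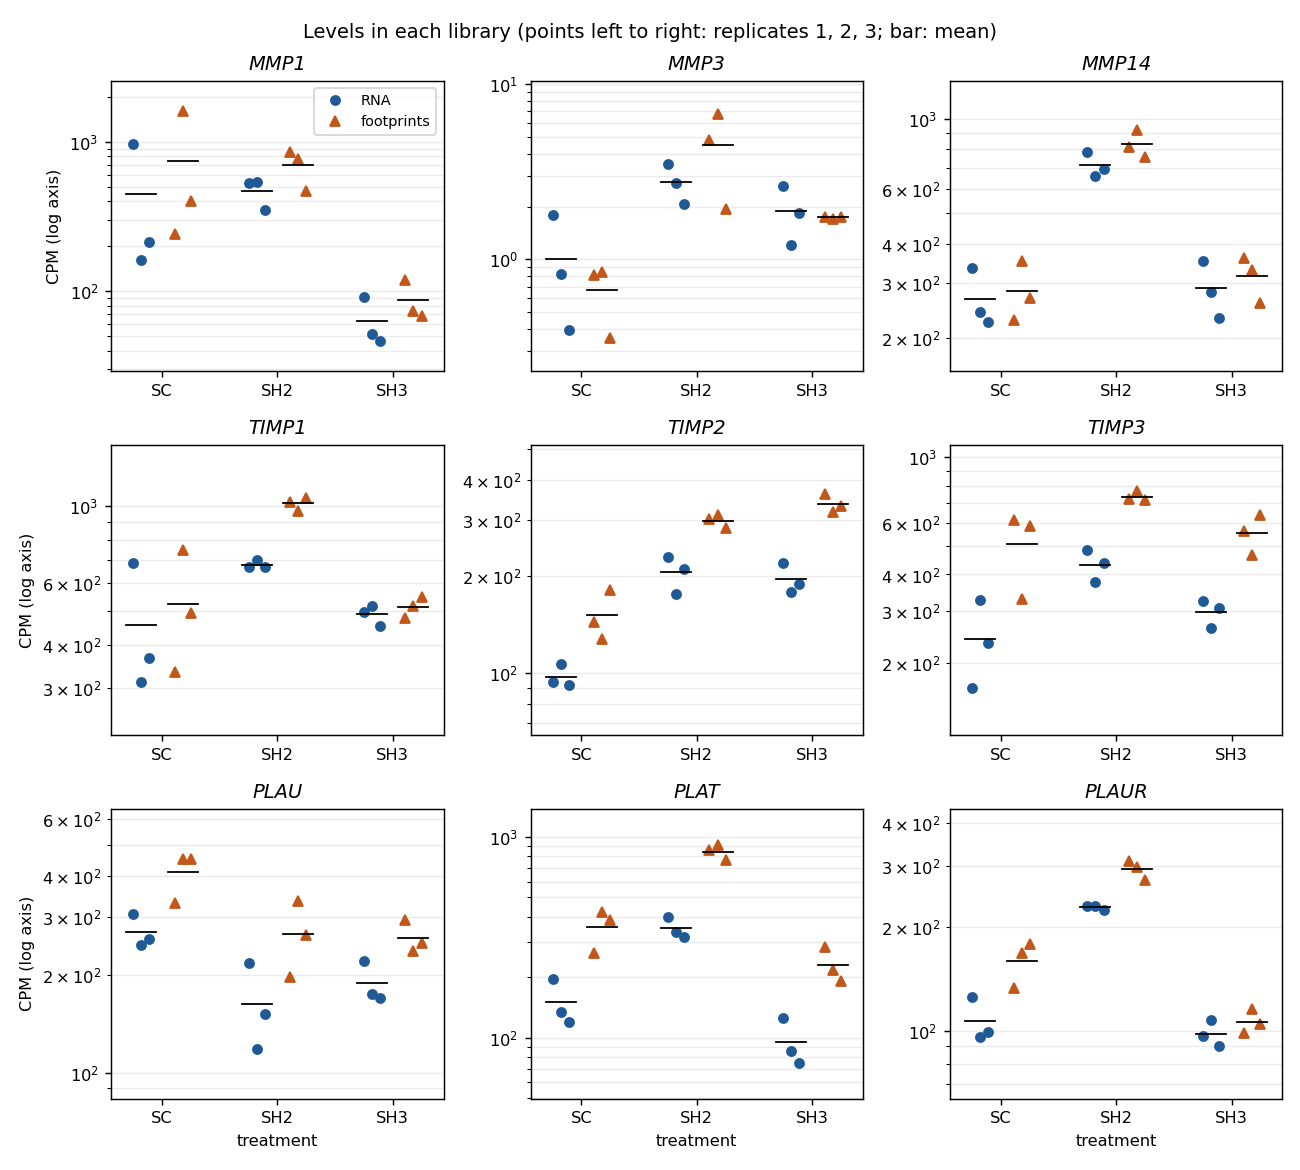
CPM on a log axis for each member in every library, by treatment, circles for RNA and triangles for footprints, with bars at the group means. SH2 stands above SC and SH3 for MMP14, PLAUR and PLAT, TIMP2 is raised with both hairpins, and MMP1 in SC spans 162 to 967 CPM in RNA.

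Translational efficiency, the footprint change beyond the RNA change, was tested in a fit of all 18 libraries. None of the 9 members was called with SH2, with SH3 or between the hairpins by edgeR, where 3.9%, 0.686% and 0.016% of all genes were called. DESeq2 also called 0 members in each comparison. At an unadjusted p under 0.05, edgeR gave 0 members with SH2, 1 with SH3 and 0 between the hairpins, and DESeq2 gave the same counts. The member with SH3 was PLAUR, with a log2 change of -0.44 (SE 0.18, edgeR adjusted p = 0.281). The SEs of the members ran from 0.17 to 0.98, the highest being that of MMP3 with SH3. Members' calls appeared when a control replicate number was left out in both library kinds. Without SC replicate 2, TIMP1 stood at 0.91 and TIMP3 at -0.85 with SH2, both called. Without SC replicate 1, PLAUR stood at -0.68 and TIMP1 at -0.75 with SH3, both called. Each of these fits drops an RNA and a footprint library of equal number, and those pairs of SC had the negative r given above.

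Footprint CPM over RNA CPM, both as group means, also describes how the members differ in the scramble control. In SC the ratio was 2.38 for PLAT, 2.10 for TIMP3, 1.68 for MMP1, 1.55 for TIMP2, 1.52 for PLAU, 1.50 for PLAUR, 1.15 for TIMP1, 1.06 for MMP14 and 0.667 for MMP3. The ratio depends on how each library kind was scaled, and therefore only its order is read. MMP3 had 2 to 5 footprint counts per SC library, and MMP1 footprints spanned 240 to 1603 CPM in SC. Among 12393 genes in SC, PLAT was above 95.9% and TIMP3 above 93.9%. MMP14 was above 64.4% of genes.

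The other genes of the system were read from 5 lists, whose counts stand beside 61.4% of all genes called in RNA with SH2 and 53% with SH3. Of 17 other metalloproteinases 8 had enough RNA counts, of which 5 were higher and 1 lower with SH2, and 3 higher and 1 lower with SH3. The list's median log2 change was 1.16 with SH2 and 0.69 with SH3. MMP15, a membrane-type enzyme related to MMP14, rose in RNA by 1.96 with SH2 (SE 0.21) and 1.69 with SH3 (SE 0.21). MMP16, another membrane-type enzyme, rose by 1.58 (SE 0.25) and 1.01 (SE 0.26). MMP24, also of the membrane type, fell by 1.95 (SE 0.32) and 2.08 (SE 0.33). Its counts were low, at 35 to 54 per SC RNA library, 9 to 18 in SH2 and 9 to 15 in SH3. MMP9, a gelatinase, rose by 1.86 (SE 0.66) and 2.98 (SE 0.60) from 0 to 9 counts per SC library, and its SH2 call was lost without SC library 2 (1.82) or 3 (1.27) or SH2 library 1 (1.67) or 2 (1.87).

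The ADAM and ADAMTS family holds membrane sheddases and matrix-cleaving enzymes. Of 15 listed, 13 were tested in RNA, with 5 higher and 3 lower with SH2, and 8 higher and 3 lower with SH3. The 8 of 13 called with SH2 is near the 61.4% of all genes. The list's medians were -0.07 and 0.60. ADAMTS7 rose most of these with SH2, by 2.46 (SE 0.17), and by 1.49 with SH3 (SE 0.17). ADAM8 rose by 1.86 (SE 0.10) and 1.19 (SE 0.10), and ADAMTS15 by 1.35 (SE 0.11) and 0.90 (SE 0.11). ADAM15 fell by 1.66 (SE 0.14) and 0.84 (SE 0.14). Footprints of these 4 genes were called in the same directions, a call that ADAMTS7 lost with SH3 when SH3 library 3 was left out (0.94) or footprint libraries were thinned to a common depth (1.03).

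Of 7 other protease inhibitors, 6 were tested in RNA, with 3 higher and 1 lower with SH2, and 2 higher and 1 lower with SH3. The medians were 0.83 and 0.35. SERPINB2 (plasminogen activator inhibitor 2) rose in RNA by 2.31 (SE 0.31) with SH2 and by 1.17 (SE 0.30) with SH3. SERPINE2 (protease nexin 1), which inhibits urokinase and thrombin, rose by 0.89 (SE 0.11) and 0.69 (SE 0.11). Its translational efficiency with SH2 was also higher, by 0.72 (SE 0.18, edgeR adjusted p = 0.0313), a call that 7 alternatives ended, at 0.68 to 0.76. RECK, a membrane-anchored metalloproteinase inhibitor, fell by 1.07 (SE 0.23) and 0.75 (SE 0.23), and the SH3 call was lost without SH3 library 2 (-0.62).

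Plasminogen itself (PLG) had 0 to 5 RNA counts per library, so the substrate of PLAU and PLAT was not tested. Of 15 genes for plasminogen binding, urokinase receptor partners and activating proteases, 10 were tested in RNA. With SH2 5 were higher and 3 lower, and with SH3 4 were higher and 5 lower, with list medians of 0.33 and -0.16, where 61.4% and 53% of all genes were called. ANXA2, a cell-surface protein that binds plasminogen and PLAT, fell in RNA by 2.84 with SH2 (SE 0.16, edgeR adjusted p = 1.91e-08) and by 0.86 with SH3 (SE 0.15, edgeR adjusted p = 3.16e-04). Mean ANXA2 RNA was 2573 CPM in SC, and the hairpin means were 360 (SH2) and 1414 (SH3). It has processed pseudogene copies, and the counting of reads that these share is not given in the sources used here. S100A10, the partner of ANXA2 in that complex, had an RNA change of 0.11 with SH2 (SE 0.10, edgeR adjusted p = 0.341) and fell by 0.72 with SH3 (SE 0.10, edgeR adjusted p = 5.61e-05). S100A10 was chosen after its values were seen. LRP1, an endocytic receptor that clears urokinase complexes, fell by 0.73 (SE 0.22) and 0.91 (SE 0.23), and the SH2 call was lost without SC library 1 (-0.43). The lysosomal proteases CTSD and CTSL rose, CTSD by 1.34 (SE 0.12) and 1.25 (SE 0.12), and CTSL by 0.69 (SE 0.14) and 0.94 (SE 0.15). BSG, known as an inducer of metalloproteinases, rose by 0.80 (SE 0.10) and 0.60 (SE 0.10) in RNA. Its translational efficiency was lower with SH2, by 0.62 (SE 0.17, edgeR adjusted p = 0.0496), a call that 13 of 17 alternatives ended.

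AP-1 and ETS proteins are factors known to act at metalloproteinase and urokinase genes. All 11 listed were tested in RNA, with 8 higher and 2 lower with SH2, and 4 higher and 1 lower with SH3, at medians of 0.37 and 0.21. JUNB rose by 0.86 (SE 0.14) and 0.78 (SE 0.14), and FOS by 0.57 (SE 0.14) and 0.58 (SE 0.14). ETS2 rose by 1.00 (SE 0.09) with SH2 and by 0.25 (SE 0.09) with SH3, where 9 of 14 alternatives ended the call. ETV5 fell to 0.434 of its SC level with SH2 and to 0.628 with SH3. In footprints 1 of 10 tested was higher and 2 were lower with SH2, and 2 were higher and 2 lower with SH3, where 44.2% and 35.9% of all genes were called. ETS2 translational efficiency was lower with SH2, by 0.77 (SE 0.16, edgeR adjusted p = 0.0123), a call lost without SH2 replicate 3 (-0.69).

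**Figure D4:**
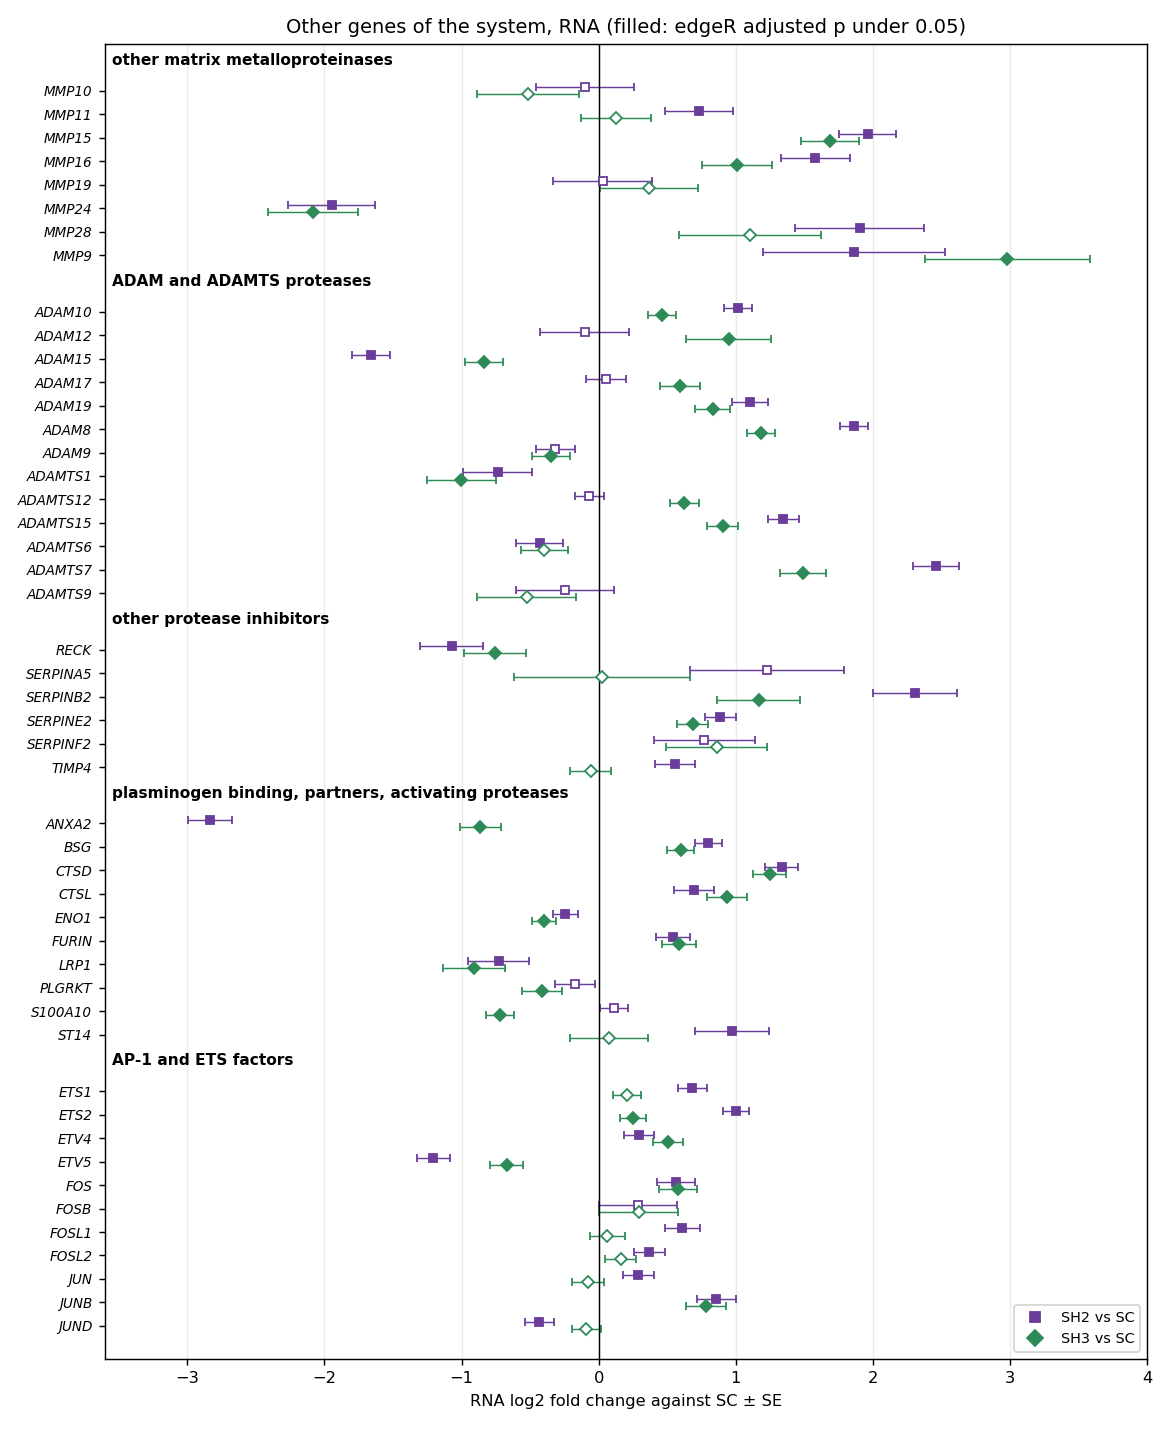
RNA log2 fold change against SC with its SE for the tested genes of the 5 lists, squares for SH2 and diamonds for SH3, filled where the edgeR adjusted p is under 0.05. ANXA2 at -2.84 with SH2 lies farthest to the left, and MMP9 at 2.98 with SH3 farthest to the right.

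The genes with RNA profiles closest to a member were sought for the member of each class with the highest mean CPM, by Pearson r of log2 CPM over the 9 RNA libraries. For MMP14 they were TMEM9B (r = 0.990), LRIG3 (r = 0.988) and P4HB (r = 0.983). Over the 9 footprint libraries their r was 0.964, 0.958 and 0.611. For TIMP1 they were GALNT7 (r = 0.946), GAA (r = 0.940) and BMP2 (r = 0.936), with 0.882, 0.889 and 0.726 in footprints. For PLAU they were ERBB3 (r = 0.957), CHRNB1 (r = 0.957) and DHRS1 (r = 0.955), with 0.639, 0.853 and 0.848 in footprints. These are descriptions over libraries that share treatments.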

How the data were processed

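A deposited table of 17017 gene symbols held, per the file headers, raw counts for 18 libraries, DESeq2-normalized signal values, and the authors' log2 fold changes and p-values for each hairpin against SC. The submitters' processing notes name Bowtie 1.2.2 and DESeq2 without roles. Genome build, annotation, counting tool and strand use are not given in the sources used here. MMP1 and MMP3 (with WTAPP1), TIMP1 (SYN1), TIMP2 (CEP295NL), TIMP3 (SYN3), PLAU (C10orf55) and PLAUR (RN7SL368P) overlap other genes in RefSeq, so reads could be shared. Over all 18 libraries SYN1 had 52 counts against 145160 for TIMP1, and SYN3 had 8 against 94382 for TIMP3. CEP295NL had 265 against 46132 for TIMP2. WTAPP1, C10orf55 and RN7SL368P have no counts in the deposited table to compare.

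The deposited counts were tested with edgeR 4.0.16 in R 4.3.3: filterByExpr, TMM scaling and two-sided quasi-likelihood tests with Benjamini-Hochberg adjustment over 12710 genes for RNA, 10345 for footprints and 12531 for translational efficiency (an interaction contrast over 18 libraries). CPM are on TMM-scaled libraries. SE is the absolute log2 change divided by the square root of F. The code was tested on simulated data. Alternatives were DESeq2 1.42.0, its size factors, no filter, only the groups compared, the replicate block, the lysate as block, thinned footprint libraries and leaving out each replicate.

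The members and gene lists were chosen with earlier results of these data known. All members are named. From each other list, up to 4 genes with the largest mean RNA change among those called with both hairpins are named, plus any called in translational efficiency. A further gene that the rule names is not reported here, and the list counts leave it out. Same-numbered libraries of SH2 and SC deviated together (r = 0.371 to 0.429 in RNA and 0.315 to 0.375 in footprints), so their numbers were taken as pairing. In the comparisons with SH3, same-numbered libraries gave r from -0.195 to 0.495 in RNA and from -0.137 to 0.436 in footprints. Those r were negative for replicate 2. The main fits, and the p-values given from them, leave the pairing of SH2 with SC out. The replicate block is the alternative that uses it.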

Additional observations from a re-analysis of the deposited data

Results flagged for a closer look

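For several members the effects of the hairpins differed by edgeR's test of SH2 against SH3. In RNA the log2 difference, SH2 minus SH3, was 2.90 for MMP1, 1.30 for MMP14, 1.88 for PLAT, 1.22 for PLAUR and 0.53 for TIMP3. In footprints it was 3.03 for MMP1, 1.40 for MMP14, 1.88 for PLAT, 1.46 for PLAUR and 0.98 for TIMP1. Both hairpins lowered FBL RNA, to 5.67 CPM with SH2 and 3.49 CPM with SH3. A cause of these differences was not tested. They do not use the SC libraries as a reference, although the SC libraries enter the estimate of spread.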

How the results depend on the processing

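The calls for MMP14, TIMP2, PLAUR and PLAT with SH2, and for MMP1 and TIMP2 with SH3, held in RNA and in footprints under every alternative run. Leaving out each replicate gave 7 to 9 called members for SH2, 3 to 5 for SH3 and 4 to 6 between the hairpins in RNA. In footprints it gave 5 to 8, 3 to 5 and 5 to 7, and in translational efficiency 0 to 2, 0 to 2 and 0 to 0. The low value of 3 for SH3 footprints came without SH3 replicate 2, and the values of 2 in translational efficiency without SC replicate 2 (SH2) and SC replicate 1 (SH3).

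With the replicate block, the paired fit of SH2 against SC still called 8 members in RNA, 7 by footprints and 0 by translational efficiency. In the other comparisons, where numbers are not shown to pair, the block called MMP3 RNA with SH3 (0.97) and TIMP1 RNA between the hairpins (0.47), as did the fit without the count filter (0.93 and 0.46). Under the block MMP1 footprints with SH2 turned to 0.15, TIMP1 footprints with SH3 to 0.0197 and PLAT translational efficiency with SH2 to -0.0182. The block gave 755, 150 and 75 calls over all genes in translational efficiency, against 489, 86 and 2. The lysate block joined RNA and footprint libraries by treatment and replicate number. Equal numbers 1 and 2 of SC and SH2 had the negative r given above, so these blocks may not be single lysates. With the lysate block the counts were 191, 23 and 0. Over all alternatives these counts ran from 110 to 910, 10 to 349 and 0 to 219, the highest with DESeq2. Footprint calls between the hairpins dropped from 2459 to 1541 without SH3 replicate 2.

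Signs turned for values that were not called in the main fits. Some ends of the ranges below were called in the fit with a replicate left out. These were MMP1 RNA (1.32) and footprints (1.12) with SH2, and TIMP1 RNA (0.51) with SH3. In translational efficiency they were TIMP1 (0.91) and TIMP3 (-0.85) with SH2, and TIMP1 (-0.75) with SH3. With replicates left out, RNA values ran from -0.32 to 1.32 for MMP1 with SH2, -0.0174 to 0.20 for TIMP2 between hairpins, and with SH3 -0.10 to 0.29 for MMP14 and -0.11 to 0.51 for TIMP1. Footprints ran from -0.51 to 1.12 for MMP1 with SH2, -0.16 to 0.22 for PLAU between hairpins, and with SH3 -0.25 to 0.32 for TIMP1 and -0.11 to 0.29 for TIMP3. Translational efficiency with SH2 ran from -1.82 to 1.42 for MMP1, -0.17 to 0.37 for MMP14, -0.39 to 0.22 for PLAT, -0.29 to 0.54 for PLAU, -0.26 to 0.91 for TIMP1, -0.31 to 0.0847 for TIMP2 and -0.85 to 0.0589 for TIMP3. With SH3 it ran from -1.95 to 1.30 for MMP1, -0.25 to 0.29 for MMP14, -0.37 to 0.24 for PLAT, -0.75 to 0.42 for TIMP1, -0.0454 to 0.34 for TIMP2 and -0.71 to 0.20 for TIMP3. Thinning the footprint libraries to a common depth gave 0.0168 for TIMP1 footprints with SH3 and -0.0145 for PLAT translational efficiency with SH2. Leaving out SC RNA library 1 and SC footprint library 2, a pair chosen after seeing the data, gave translational efficiencies of -0.0912 for PLAT with SH2, -0.0833 for MMP3 with SH3 and -0.0761 for PLAT with SH3. The causes were not tested. MMP3 had 2 to 29 footprint counts per library.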

Other observations

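The authors' deposited table holds a further measure named RD for each hairpin, and its columns are identical for SH2 and SH3 in all 17017 genes. For the members, the DESeq2 interaction contrast was recomputed from the counts and set beside it. For all 9 members the deposited RD log2 value was nearer to the recomputed SH3 value than to the SH2 value, with a median distance of 0.0001 from SH3 and 0.22 from SH2. TIMP1 shows the gap: the authors' deposited table gives -0.11 under both hairpins, against recomputed values of 0.38 for SH2 and -0.11 for SH3. MMP3 was given as 0.53, against recomputed values of 1.36 for SH2 and 0.53 for SH3. For this reason the RD columns were not used as a measure of SH2.

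MMP1 and MMP3 belong to a cluster of metalloproteinase genes on chromosome 11. Over the 9 RNA libraries MMP1 had 75376 counts, MMP3 438, MMP10 304, MMP13 43 and MMP7 9. MMP8, MMP12, MMP20 and MMP27 had at most 5 counts each in all. Counts are not corrected for length, so they are given only to show which genes of the cluster were detected. MMP10, between MMP8 and MMP1 in RefSeq's order, had 20 to 61 counts per library and was not called in RNA with either hairpin by edgeR.

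CTSB, a lysosomal protease known as abundant in many carcinoma lines, had 0 to 8 RNA counts per library. A cause was not tested.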
